A study of Mus musculus with 8 samples.

Results

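The integrin chains described here are 10 genes of T cell integrins, taken by name: the alpha chains Itgae, Itga4, Itga6, Itgal and Itgav and the beta chains Itgb7, Itgb1, Itgb2, Itgb3 and Itgb8. They are 10 of the 36811 gene models in the deposited table, and all 10 were among the 11260 models that passed a filter on low values (at least 1 FPKM in at least 4 libraries). FPKM counts fragments per kilobase of transcript, scaled to the size of the library. Levels of different chains can be set side by side only roughly, since the transcript lengths the authors used are not given. In the GENCODE annotation, the exon bases of the chains ran from 2770 for Itgb7 to 13978 for Itga4. The cells were splenic regulatory T (Treg) cells, the Foxp3-expressing T cells that restrain immune responses, from C57BL/6 mice aged 12 to 13 weeks. All mice carried the Foxp3EGFP-DTR allele, a green reporter joined to the diphtheria toxin receptor, and 1 Bach2 allele with a red reporter (genotype Foxp3EGFP-DTR Bach2tdRFP/+), and no treatment is named. Foxp3-GFP positive cells were sorted into Bach2-RFP HI and Bach2-RFP LO populations, with 4 libraries each, labelled F1, F2 (female), M1 and M2 (male). The labels do not say whether each library came from its own mouse or whether mice were pooled, and the p-values therefore reflect variation among these libraries only, which may in part be technical.

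An integrin is a receptor of 1 alpha and 1 beta chain that binds matrix or counter-receptors on other cells, and a chain reaches the surface only as part of such a pair. In T cells, the beta 2 chain with alpha L forms LFA-1, which binds ICAM proteins, and the alpha 4 chain pairs with beta 1 to bind VCAM-1 or with beta 7 to bind MAdCAM-1 of gut vessels. The alpha E chain, CD103, pairs with beta 7 and binds E-cadherin of epithelia, while alpha V with beta 8 activates latent TGF-beta. Transcript levels, as measured here, do not show which pairs formed.

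The libraries differed in depth and in the markers of other cells. Relative depth, estimated from the steps between low FPKM values, ran from 0.636 in HI M1 to 5.27 in LO M2, with HI F1 taken as 1. In LO M2, 56.4% of the values fitted whole-number steps, against 77.8% to 86.0% in the other libraries apart from HI F1. The authors' scaling is unknown and may enter these estimates. Bach2 itself stood at 8.62 to 20.7 FPKM in HI and at 0.447 to 0.894 in LO libraries, and Foxp3 at 13.3 to 15.2 and 10.5 to 19.8. None of the 6 T cell markers passed the test between the groups (limma, 0 of 6 at an unadjusted p below 0.05). Cd8a was at no more than 2.01 FPKM in any library. Cd8b1, however, was at 34.7 to 46.1 FPKM in HI and 23.8 to 33.6 in LO libraries and did not pass (limma adjusted p = 0.119). Markers of other cells were unequal: 3 of 7 tested B cell genes (Cd79a, Ms4a1 and Fcer2a), 2 of 9 myeloid genes (Csf1r and Fcgr3), 2 of 7 dendritic cell genes (Siglech and Ccr9) and 2 of 5 CD8 T and NK cell genes (Klrd1 and Eomes) were lower in LO, and 1 of 4 plasma cell genes, Jchain, was higher. Ms4a1, Fcer2a, Siglech, Klrd1 and Eomes reached 1 FPKM in at most 1 LO library and passed the low-value filter through HI, where they were high, so they had to differ. Ccr9 is not specific to dendritic cells, since T cells can also express it. The lists were not uniform. Log2 differences were above 0 for 3 of the 9 tested myeloid genes (Itgam, S100a8 and S100a9) and 2 of the 4 plasma cell genes (Jchain and Sdc1). They were also above 0 for 1 of the 7 dendritic cell genes (Itgax), and the rest of these lists were below 0. The summed FPKM of the 9 B cell genes was 148 to 261 in HI and 77.2 to 104 in LO libraries, and that of the 11 myeloid genes 157 to 367 and 108 to 281. Over all tested genes, 3.64% were called lower and 4.65% higher in LO. The part of other cell types in the values below was not tested. In bulk RNA, fewer cells of a type and less RNA per cell cannot be told apart.

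The chains divided into 3 that rose in LO cells and 7 that did not pass the test. Itgae and Itgb1 rose by several fold, Itgb7 rose 1.56-fold from a level that was already the highest of all chains, and no chain was called lower. Of the 11260 tested genes, 8.29% were called in either direction, 4.65% were called higher and 3.64% lower in LO (limma, Benjamini-Hochberg adjusted p below 0.05). Among the chains, 3 of 10 were called higher and 0 of 10 lower, with 4 of 10 at an unadjusted p below 0.05. The median log2 difference of the 10 chains, LO minus HI, was 0.606, and that of all tested genes was -0.026. In 9 of the 10 chains the difference was above 0. The comparisons with all genes are descriptive, since the chains were chosen with earlier results of these data known. The 4 LO values lay outside the range of the 4 HI values in 4 chains, the 3 called ones and Itga6, where 15.1% of all tested genes had no overlap (7.9% with LO above and 7.18% with LO below).

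**Figure D1:**
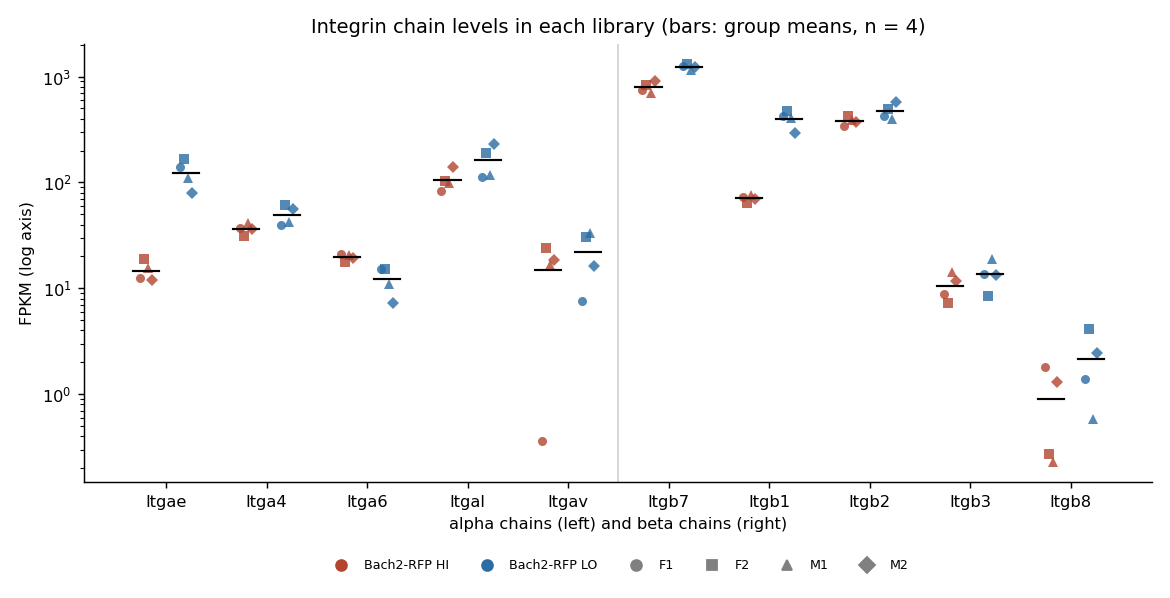
FPKM on a log axis of each integrin chain in the 8 libraries, alpha chains left and beta chains right, with HI in red, LO in blue, a marker shape for each label and a bar at the group mean (n = 4). Itgae, Itgb7 and Itgb1 have all LO points above all HI points, Itga6 has all below, and HI F1 stands at 0.362 for Itgav.

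Itgae (ENSMUSG00000005947), the alpha E chain of the E-cadherin receptor, had the largest log2 difference of the 10 chains. Its level was 12.4, 18.8, 15.4 and 12.0 FPKM in HI F1, F2, M1 and M2, and 138, 165, 110 and 78.9 FPKM in the LO libraries in the same order. The lowest LO library, LO M2, was thus still above the highest HI library. The means were 14.7 ± 3.13 and 123 ± 37.1 FPKM (SD, n = 4 each), an 8.40-fold rise (log2 difference 2.96, SE 0.257, limma adjusted p = 0.000262). The LO libraries spread more widely than the HI libraries, with both female LO libraries above both male ones. Haspin, a mitotic kinase gene, lies within Itgae on the opposite strand in the GENCODE annotation but shares 0 bases of exon with it. Its level was 0.915 to 2.24 FPKM in HI and 3.35 to 6.15 in LO libraries, far below that of Itgae in LO.

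Itgb1 (ENSMUSG00000025809), the beta 1 chain shared by the largest family of matrix receptors, rose from a narrow range. The HI values were 72.8, 64.0, 76.2 and 69.7 FPKM, and the LO values were 423, 475, 404 and 290 FPKM. No library of one group came near the other group, and LO M2 was again the lowest LO library. The means were 70.7 ± 5.17 and 398 ± 77.7 FPKM (SD, n = 4 each), a 5.63-fold rise (log2 difference 2.46, SE 0.17, limma adjusted p = 7.8e-05). Both Itgae and Itgb1 kept their calls in each of the 18 other analyses run, with adjusted p of at most 0.00199 for each.

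Itgb7 (ENSMUSG00000001281), the beta 7 chain of the gut homing receptor and of CD103 pairs, was the most abundant chain in all 8 libraries. It stood at 742, 825, 705 and 913 FPKM in HI and at 1245, 1317, 1166 and 1239 FPKM in LO libraries. The groups did not overlap, but the step between them was smaller than for the other 2 called chains. Its means were 796 ± 92.7 and 1242 ± 61.9 FPKM (SD, n = 4 each; log2 difference 0.65, SE 0.122, limma adjusted p = 0.00964). The call was lost when the variance trend was left out of the fit (adjusted p = 0.062) and held in the other 17 analyses.

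The DNA just before the start sites of Itgb1 and Itgb7 is shown with that of Itga4, the alpha chain that pairs with both and that did not pass the test. Each run is 250 bases ending at the base before the annotated start, read 5′ to 3′ on the gene's own strand, from RefSeq's promoter table on GRCm38.p6. Capitals mark CACCC or its reverse complement GGGTG, the core letters bound by Krüppel-like factors.
Itgb1, chr8:128685404-128685653 (+ strand): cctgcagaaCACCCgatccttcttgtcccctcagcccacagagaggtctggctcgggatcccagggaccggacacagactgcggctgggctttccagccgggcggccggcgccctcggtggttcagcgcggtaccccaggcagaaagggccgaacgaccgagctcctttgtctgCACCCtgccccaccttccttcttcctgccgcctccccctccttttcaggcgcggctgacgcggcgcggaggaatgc
Itgb7, chr15:102231936-102232185 (- strand): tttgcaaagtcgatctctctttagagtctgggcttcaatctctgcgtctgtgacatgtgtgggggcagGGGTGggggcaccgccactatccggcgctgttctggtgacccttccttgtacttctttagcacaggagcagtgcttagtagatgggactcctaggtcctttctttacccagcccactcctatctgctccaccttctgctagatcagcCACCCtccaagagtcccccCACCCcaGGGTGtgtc
Itga4, chr2:79255176-79255425 (+ strand): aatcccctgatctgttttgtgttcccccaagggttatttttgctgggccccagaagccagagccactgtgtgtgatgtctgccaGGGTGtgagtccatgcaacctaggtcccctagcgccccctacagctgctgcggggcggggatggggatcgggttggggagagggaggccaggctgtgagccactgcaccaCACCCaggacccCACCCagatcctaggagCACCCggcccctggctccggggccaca

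The table holds 5 of the 10 chains (these 3, Itgav and Itgb8). The motif CACCC, searched on both strands, was found 2 times each in Itgb1 and Itgb8, 4 times each in Itgb7 and Itga4, and 1 time in Itgav. It occurs at least once in 52.0% of the 32851 promoter windows of that length. It occurs 4 or more times in 2.1% of them, a cut-off equal to the highest count seen here. The motif TGANTCA, the core that AP-1 and Bach factors can bind, was found in 0 of the 5 windows and occurs in 6.7% of all windows. GGGCGG, the GC box, was found once each in Itgb1 and Itga4 and occurs in 32.7%. CACCC and GGGCGG matches shared 0 bases in the 5 windows. The G and C content was 68.0% for Itgb1, 56.0% for Itgb7 and 64.0% for Itga4, against a median of 52.4% over all windows. A match of letters is no evidence of binding, and sites farther away were not searched.

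Of the other alpha chains that pair with beta 1 or beta 7, none of Itga4, Itga6 and Itgav passed the test (limma; 1 of 3 at an unadjusted p below 0.05, Itga6). Itga4 (ENSMUSG00000027009) was at 37.3, 31.4, 41.4 and 36.2 FPKM in HI and at 39.4, 60.7, 42.7 and 55.6 FPKM in LO libraries. LO F1 lay among the HI libraries and the other LO libraries above them, with LO F2 highest. Its log2 difference was 0.41 (SE 0.197, limma adjusted p = 0.269). The Itga4 model shares 1124 of its 13978 annotated exon bases with Cerkl, a ceramide kinase-like gene on the opposite strand, listed at 18.4 to 43.1 FPKM in HI and 9.19 to 30.0 in LO. Whether the authors counted by strand is not given in the sources used here, so reads in that stretch cannot be told apart.

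Itga6 (ENSMUSG00000027111), the alpha 6 chain of the laminin receptor, was the only one of the 10 chains with a log2 difference below 0. It stood at 21.2, 17.8, 20.6 and 19.2 FPKM in HI and at 15.1, 15.2, 10.98 and 7.21 FPKM in LO libraries. Each LO value was below each HI value, as in 7.18% of all tested genes, and LO M2 was the lowest. The difference of -0.7 (SE 0.27) did not pass after adjustment (limma adjusted p = 0.165), and it was -0.5 without LO M2.

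Itgav (ENSMUSG00000027087), the alpha V chain, varied widely within both groups. Its HI values were 0.362, 24.3, 16.7 and 18.3 FPKM and its LO values 7.60, 30.4, 33.0 and 16.4 FPKM. The F1 library was the lowest of each group, and the ranges overlapped. The log2 difference was 0.94 with an SE of 0.874 (limma adjusted p = 0.609), and it turned to -0.040 without HI F1. Gm13684, an antisense transcript model that shares 634 of the 10744 exon bases of Itgav, was listed at 2.89 FPKM in HI F1 and at 0 in the other 3 HI libraries.

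The LFA-1 chains were abundant in both populations. Itgal (ENSMUSG00000030830), the alpha L chain, was at 83.7, 103, 97.7 and 140 FPKM in HI and at 112, 189, 116 and 232 FPKM in LO libraries. Its 2 highest values were LO F2 and LO M2, while LO F1 and LO M1 lay below HI M2. Itgb2 (ENSMUSG00000000290), the beta 2 chain, was at 342, 427, 392 and 370 FPKM in HI and at 425, 496, 399 and 579 FPKM in LO libraries. HI F2 stood above LO F1 and LO M1, so the groups overlapped. Neither chain passed, with log2 differences of 0.56 (SE 0.264, limma adjusted p = 0.26) and 0.3 (SE 0.15, limma adjusted p = 0.295). Both differences were smaller without LO M2, the deepest library by the estimate above, at 0.37 and 0.2.

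The beta 3 and beta 8 chains were the least abundant of the beta chains among the 10 described. Itgb3 (ENSMUSG00000020689), a partner of alpha V, was at 8.85, 7.29, 14.3 and 11.6 FPKM in HI and at 13.6, 8.44, 19.0 and 13.3 FPKM in LO libraries. The ranges overlapped, and M1 was the highest library of each group (log2 difference 0.33, SE 0.312, limma adjusted p = 0.616). Platelets are rich in beta 3. The platelet genes Ppbp and Gp1bb were listed at 0 in all 8 libraries. Clec1b was at 4.05 FPKM in HI F1 and 3.69 in HI F2, and Gp1ba was at no more than 0.581 in any library. Others were above 0 in single libraries (Gp9 at 4.78 FPKM in LO F2, Pf4 at 3.10 in LO M1, Itga2b at 4.48 in HI F2). The 9 platelet genes summed to at most 8.17 FPKM in HI and 7.36 in LO. Itgb8 (ENSMUSG00000025321), the chain of the TGF-beta activating pair, was at 1.82, 0.271, 0.229 and 1.31 FPKM in HI and at 1.39, 4.17, 0.585 and 2.44 FPKM in LO libraries. These values lie close to the low-value filter and rest on few reads. Its log2 difference was 0.68 (SE 0.474, limma adjusted p = 0.471).

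**Figure D2:**
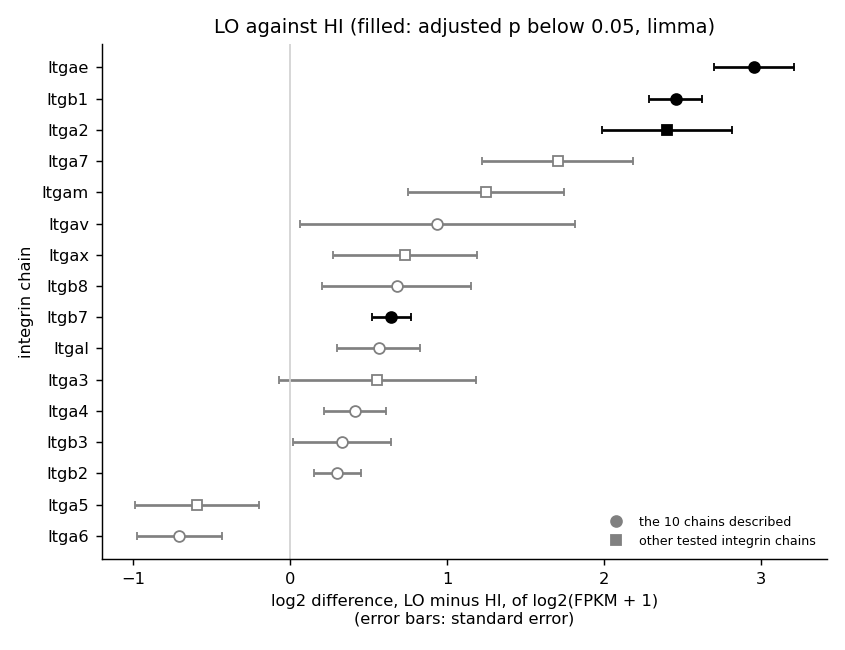
Log2 differences, LO minus HI, of log2(FPKM + 1) with standard errors for the 10 chains (circles) and the 6 other tested integrin chains (squares), filled where the limma adjusted p was below 0.05. The 4 filled points, Itgae, Itgb1, Itga2 and Itgb7, all lie above 0.

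The order of the levels was set out for each population by mean FPKM. In HI cells it ran Itgb7, Itgb2, Itgal, Itgb1, Itga4, Itga6, Itgav, Itgae, Itgb3 and Itgb8. The ranges of Itga6 and Itgav overlapped, as did those of Itgav and Itgae and of Itgae and Itgb3. Within libraries, Itga6 was above Itgav and Itgav above Itgae in 3 of 4, and Itgae above Itgb3 in 4 of 4. In LO cells it ran Itgb7, Itgb2, Itgb1, Itgal, Itgae, Itga4, Itgav, Itgb3, Itga6 and Itgb8. There Itgb2 was above Itgb1 in 3 of 4 libraries and Itgal above Itgae in 3 of 4, each with overlapping ranges. The ranges of Itgav, Itgb3 and Itga6 also overlapped from one to the next.

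Read as 8 known pairs, the chains gave alpha to beta FPKM ratios that did not overlap between the groups in 3 pairs, each with Itgae or Itgb1 in it. These ratios within a library do not depend on how libraries are scaled to each other, and they are given as a description, without a test. Their absolute size does depend on the transcript lengths used, which are not given. For CD103, Itgae over Itgb7 was 0.0168, 0.0228, 0.0219 and 0.0132 in HI F1, F2, M1 and M2. It was 0.111, 0.126, 0.0944 and 0.0637 in the LO libraries, so the FPKM of the alpha chain remained well below that of the beta chain in both. Against its rival for beta 7, Itgae over Itga4 was 0.332 to 0.598 in HI and 1.42 to 3.52 in LO libraries: Itga4 was the more abundant of these alpha chains in all 4 HI libraries and Itgae in all 4 LO libraries. Summed, Itgae and Itga4 came to 0.0528 to 0.0807 of Itgb7 in HI and 0.109 to 0.172 in LO. Itga4 over Itgb7 alone was 0.0381 to 0.0588 and 0.0316 to 0.0461, which overlap.

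**Figure D3:**
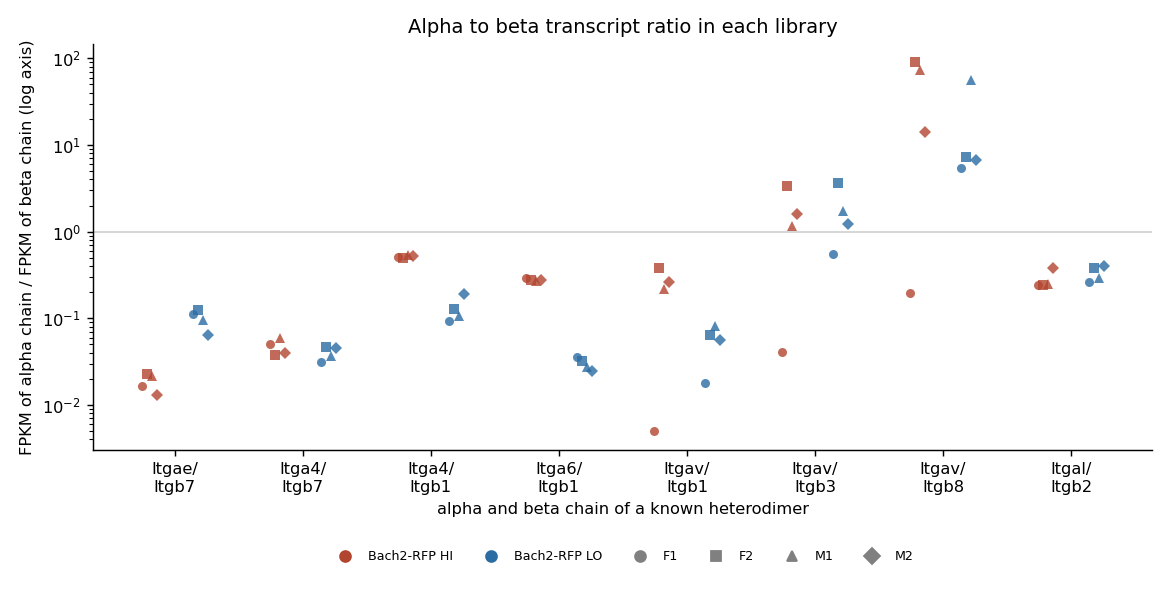
Ratio on a log axis of alpha chain FPKM to beta chain FPKM in each library for 8 known pairs, with HI in red and LO in blue. Itgae/Itgb7 is higher in all LO libraries, Itga4/Itgb1 and Itga6/Itgb1 are lower in all LO libraries, and the other 5 pairs overlap.

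The ratios to beta 1 were lower in LO for Itga4 and Itga6. Itga4 over Itgb1, the pair that binds VCAM-1, was 0.512, 0.49, 0.544 and 0.519 in HI and 0.0932, 0.128, 0.106 and 0.192 in LO libraries. Itga6 over Itgb1 was 0.27 to 0.291 in HI and 0.0248 to 0.0358 in LO. Itgav over Itgb1 overlapped between the groups (0.00497 to 0.379 and 0.018 to 0.0819) because of HI F1, where Itgav was nearly absent. The other pairs overlapped too: Itgal over Itgb2 was 0.241 to 0.379 and 0.264 to 0.401, and Itgav over Itgb3 was 0.0409 to 3.33 and 0.559 to 3.60. Itgav over Itgb8 ranged over more than any other pair, from 0.199 to 89.7 in HI and from 5.49 to 56.5 in LO, and is not informative at these levels of Itgb8.

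All 12 alpha chains known to pair with beta 1 were then summed, a step chosen after the data were seen. The sum was 65.8, 80.8, 82.0 and 79.1 FPKM in HI and 81.2, 124, 98.1 and 90.9 FPKM in LO libraries. LO F1 lay among the HI libraries and the other 3 above them. In HI cells this sum was close to the level of Itgb1, at 0.903 to 1.26 of it. In LO cells it was 0.192 to 0.313 of it, so the FPKM of Itgb1 was several fold that of all its alpha partners together. Itga4 made up 38.9% to 56.7% of the sum in HI and 43.6% to 61.2% in LO libraries.

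**Figure D4:**
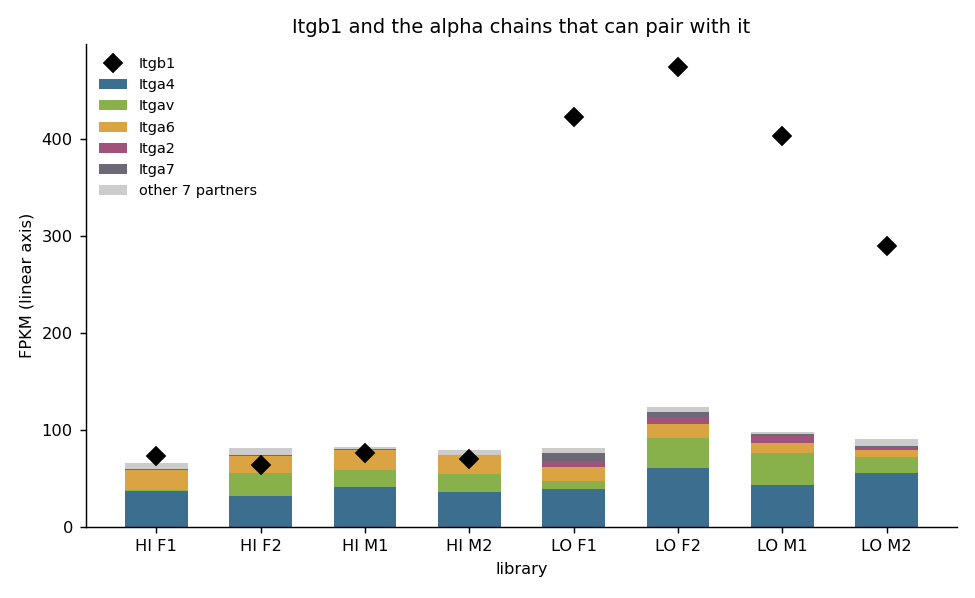
FPKM on a linear axis of Itgb1 (diamonds) and of the alpha chains that can pair with it (stacked bars) in each library. In the HI libraries the diamond lies near the top of the stack of 65.8 to 82.0 FPKM, and in the LO libraries it lies at 290 to 475 above stacks of 81.2 to 124 FPKM.

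Outside the 10 chains, 6 of 16 other integrin chains passed the low-value filter, and 1 of these rose, where 4.65% of all tested genes did. Itga2, the alpha 2 chain of the collagen receptor with beta 1, was listed at 0 in HI F1, F2 and M2 and at 1.40 FPKM in HI M1. In LO libraries it was at 6.18, 6.90, 6.84 and 3.21 FPKM (log2 difference 2.4, SE 0.414, limma adjusted p = 0.00601). Since it passed the filter through the group where it is high, its count is not a separate sign of direction. Itga7, a laminin receptor chain, was at 1.25, 0.246, 0 and 0.382 FPKM in HI and at 7.65, 5.35, 2.19 and 1.495 in LO and did not pass (adjusted p = 0.0593), but did without LO M2 (adjusted p = 0.0447), with the sex label as a covariate (0.0324) and without a variance trend (0.0495). It too passed the filter through LO, where it was high. Itgam and Itgax, the alpha chains of myeloid and dendritic cells, were at no more than 2.40 and 2.45 FPKM in HI and 4.70 and 4.58 in LO libraries, and neither passed (adjusted p = 0.181 and 0.412). Itga3 and Itga5 had adjusted p = 0.682 and 0.443, and Itga8 and Itgb6 were listed at 0 in all 8 libraries.

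Genes that control the switch of integrins to their binding state were not called. The list holds genes that promote the switch and genes that restrain it (Sipa1, Rap1gap2 and Rasa3). Of the 21 genes on the list, 18 were tested and 0 passed in limma. At an unadjusted p below 0.05 there were 2, Rassf5 at -0.46 and Cyth1 at -0.86 on the log2 scale. The median log2 difference of the list was -0.196. Over all tested genes, 8.29% were called in either direction and the median was -0.026. Tln1, encoding talin, which binds beta chain tails, was at 131 to 212 FPKM in HI and 161 to 428 in LO, and did not pass (adjusted p = 0.298). Fermt3, encoding kindlin-3, was at 250 ± 11.6 and 267 ± 31.2 FPKM (SD, n = 4 each; adjusted p = 0.77).

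Among 23 tested genes of tail adaptors and signalling, 1 rose and 2 fell, with a median of 0.258. The shares over all tested genes were 4.65% higher and 3.64% lower, with a median of -0.026. Actn1, an actin crosslinker that binds beta tails, fell from 19.6 to 40.7 FPKM in HI to 6.30 to 8.88 in LO libraries, with a limma log2 difference of -1.67 and an SE of 0.272 (adjusted p = 0.00451). Evl, an actin polymerase of the Ena/VASP family, fell from 31.7 to 51.3 FPKM to 11.4 to 15.8, a limma log2 difference of -1.52 (adjusted p = 0.00225). Zyx, the focal adhesion protein zyxin, was at 62.9 to 80.5 and 103 to 116 FPKM and rose (adjusted p = 0.031), a call lost when any library other than HI M2 was left out (adjusted p = 0.0565 to 0.0843).

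Of 18 ligand genes 6 were tested, and 2 rose and 1 fell, with a median of -0.015. Across all tested genes 4.65% rose and 3.64% fell, with a median of -0.026. Icam1, the ligand of LFA-1, rose from 34.8 ± 6.51 to 100 ± 9.50 FPKM (SD, n = 4 each), which is 2.88-fold; limma gave a log2 difference of 1.51 with an SE of 0.179 (adjusted p = 0.00097). Vcam1, the ligand of alpha 4 beta 1, fell from 10.6 to 22.8 FPKM in HI to 0.912 to 3.73 in LO libraries, a limma log2 difference of -2.2 (adjusted p = 0.00603). Of the 9 tested myeloid genes, 2 fell as well (Csf1r and Fcgr3), 6 had log2 differences below 0 and 3 above 0, and their part in this result was not tested. Lamc1, a laminin chain, was at 0.505 to 3.22 and 4.78 to 24.6 FPKM and rose (adjusted p = 0.0334), a call that held only without HI F2 or LO M1 among the 8 analyses that left out 1 library (adjusted p = 0.0503 to 0.0964 in the other 6).

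Surface proteins that associate with integrins changed in both directions, with 2 of 12 tested genes higher, 2 lower and a median of -0.064. Beside this stand 4.65% higher, 3.64% lower and a median of -0.026 over all tested genes. The tetraspanins, membrane organizers that bind integrins laterally, were split. Cd82 rose from 502 ± 56.0 to 1234 ± 181 FPKM (SD, n = 4 each), or 2.46-fold, with a limma log2 difference of 1.29 and an SE of 0.142 (adjusted p = 0.000642). Cd9 fell from 166 ± 18.1 to 66.9 ± 13.5 FPKM, with a limma log2 difference of -1.31 and an SE of 0.179 (adjusted p = 0.0019), while Cd81 and Cd53 did not pass (adjusted p = 0.707 and 0.589). Cd37 rose (adjusted p = 0.0433), but its call was lost in 10 of 18 other analyses, among them 6 that left out 1 library each: HI F1, F2 and M2, and LO F1, F2 and M2 (from 0.0785 to 0.127). Plaur, the urokinase receptor, was at 3.66 to 12.0 FPKM in HI and at 2.44, 0, 0 and 0.947 in LO (adjusted p = 0.019). It passed the low-value filter through HI, where it was high, so its count among the lower genes is no separate sign of direction. Its call was lost without HI F1, LO F2 or LO M1 (adjusted p = 0.0525 to 0.0576). Lrrc32, encoding GARP, which presents latent TGF-beta to alpha V beta 8 on Treg cells, was at 35.0 to 75.4 and 11.3 to 29.8 FPKM and did not pass (adjusted p = 0.0607).

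**Figure D5:**
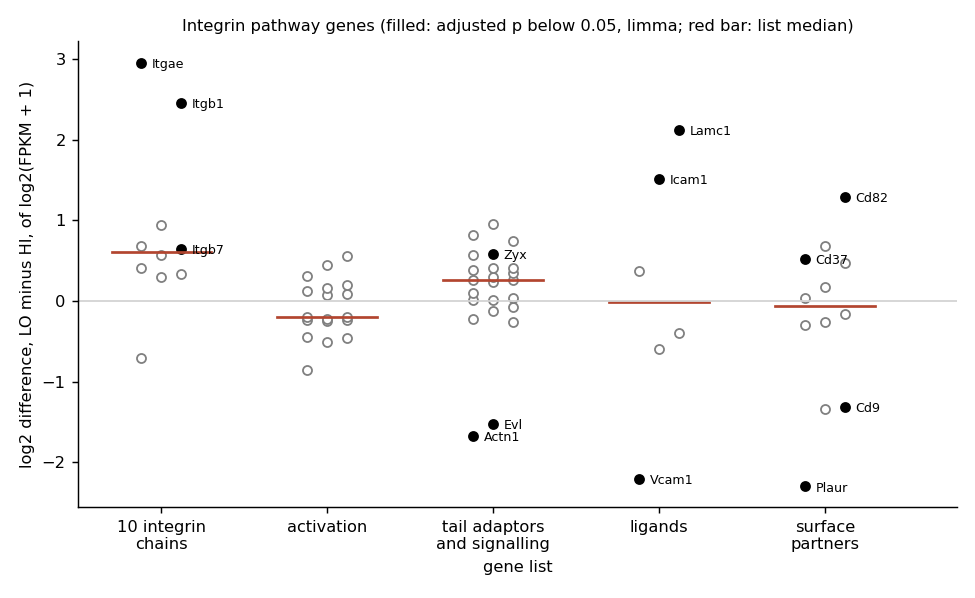
Log2 differences, LO minus HI, of log2(FPKM + 1) for the tested genes of the 10 integrin chains and of 4 lists of related genes, filled and named where the limma adjusted p was below 0.05, with a red bar at each list's median. The medians run from -0.196 for the activation list, which includes genes that restrain activation, to 0.606 for the 10 chains.

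Whether the change from HI to LO differed between the female and male labels was tested as an interaction. In that fit, 0 of the 10 chains passed (limma; 0 of 10 at an unadjusted p below 0.05), and 2 of all tested genes (0.0178%) did, the receptor segment Traj56 and the pseudogene Mpc1-ps. These were named after their values were seen. The rise of Itgae was smaller in the male libraries by 0.54 on the log2 scale with an SE of 0.462, and that of Itgb1 by 0.48 with an SE of 0.341 (adjusted p = 0.999 for each chain). Differences of this size were not detected, and with 2 libraries per label and group this does not show that they are absent.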

How the data were processed

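RNA was sequenced from 8 libraries of sorted Treg cells, 4 Bach2-RFP HI and 4 LO, made with SmartSeq2 per the labels' protocols. The deposited table is named as Cuffnorm output, and its FPKM values were used as the authors gave them; the scaling setting is unknown. The submitters' processing notes name HISAT2, cutadapt and FastQC, with mm9 and NCBIM37 as builds. No source used here gives the annotation or the use of strand. The series' design text describes another, single-cell experiment. Symbols came from GENCODE M21 by Ensembl ID (31840 of 36811 matched, and all 182 list entries). A few marker genes are not reported here. Read totals are not in the table, so no counting interval is given; the precision is that of the spread over libraries.

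Genes with at least 1 FPKM in at least 4 libraries (11260) entered a limma fit (3.58.1, R 4.3.3; eBayes with a variance trend) on log2(FPKM + 1), Benjamini-Hochberg adjusted over all of them at 0.05. This scale understates changes of low genes, and each fold divides mean FPKM by mean FPKM. The comparison of LO with HI had no covariates. The fit was tested on simulated data. Since all 10 chains were in the fit, no separate exact test was run. The chains and lists were chosen with earlier results of these data known. All 10 chains were named, and of related lists the called genes, up to 5 in each direction. Tln1, Fermt3, Rassf5, Cyth1, Cd81, Cd53 and Lrrc32 fall outside that rule and were chosen after their values were seen. When libraries were left out, the tested genes were held fixed, a choice made after the data were seen. Alternatives were other pseudocounts, filters and scalings, other eBayes settings, sex as a covariate, blocking on the label, and fits without 1 library or without HI M1 and LO M2. The labels do not say whether HI and LO libraries with the same label share a mouse, and the main fit did not pair them. Deviations from the group means correlated at 0.015 to 0.113 between libraries with the same label. Between libraries with different labels they correlated at -0.1 to 0.058, so a pairing by label cannot be told from these values.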

Additional observations from a re-analysis of the deposited data

Results flagged for a closer look

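Of 56 groups of 4 values examined (the FPKM of integrin chains and the pair ratios in each population), 5 had 1 library far from the other 3, by the gap to its neighbour as a share of the range (Dixon's test). Chance flags about 1 in 20 such groups, and the ratios share chains, so they are not independent. Itga2 was at 1.40 FPKM in HI M1 and listed at 0 in the other 3 HI libraries. With 3 of 4 values at 0, any value above 0 would be flagged, so this flag carries no weight. The ratio of Itgav to Itgb8 was 56.5 in LO M1, where Itgb8 was at 0.585 FPKM, against 5.49 to 7.30 in the other LO libraries. Itgal to Itgb2 was 0.379 in HI M2, against 0.241 to 0.249 in the other HI libraries. Itgae to Itga4 was 0.598 in HI F2, against 0.332 to 0.372 in the others. Itgb1 to Itgb7 was 0.234 in LO M2, by estimate the deepest library, against 0.339 to 0.36 in the other LO libraries, and 0.0763 to 0.108 in HI. No cause was tested for any of these.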

How the results depend on the processing

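All 3 calls among the chains held in each other analysis except Itgb7 without a variance trend (adjusted p = 0.062), and no chain gained a call in any of them. The 10 chains kept the sign of their log2 difference, apart from Itgav without HI F1, and Itgav ran from -0.040 to 1.37 when 1 library was left out; Itgb8 was not tested with the filter of at least 5 FPKM. With the label as a replicate block, 771 genes passed, against 934 without, and all 3 calls were kept; not every library correlated best with its own label. Leaving out 1 library gave 642 to 788 calls over all genes, and leaving out HI M1 and LO M2 together gave 646 and the same 3 chains. The interaction called 1 gene without a filter, 3 with a pseudocount of 0.1, 3 without a variance trend and 1 to 2 when 1 library was left out, against 2, and no chain in any analysis. The small interaction difference of Itgb7, -0.13, turned to 0.048 with quantile normalization and 0.015 with upper quartile scaling, and ran from -0.31 to 0.058 when 1 library was left out (0.058 without HI M2), and the cause was not tested. Interaction differences of other chains also turned sign: Itgb3 in 7 of 16 analyses, Itgal and Itgb2 in 4 of 16, Itgb8 in 4 of 15, Itga4 in 2 and Itgav in 1. Low levels limit Itgb8, Itga2, Itga3, Itga7, Itgam and Itgax, each below 1 FPKM in at least 1 HI library.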
